A study of Mus musculus with 41 samples.

Results

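The genes of cholesterol and fatty acid synthesis were followed in 13 RNA-seq libraries of mouse androgenetic haploid embryonic stem cells (AG-haESCs), cells with 1 set of chromosomes that came from a sperm. The set held 33 of the 24028 gene symbols in the expression tables and was taken by symbol, not by level. Of these, 32 stood in the tables under the name given and 1, Sc4mol, under its current name Msmo1. By role they were 8 enzymes that lead to squalene, 10 that lead from squalene to cholesterol, 5 regulators, 9 enzymes of fatty acid synthesis, elongation and desaturation, and the sterol carrier Stard4.

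Cholesterol and fatty acids are both built from acetyl-CoA. Acat2 and Hmgcs1 begin the sterol branch, whose isoprenoid steps end in squalene, and Sqle then commits squalene to the sterol ring. In the fatty acid branch Acly and Acss2 supply acetyl-CoA, Acaca makes malonyl-CoA, Fasn builds palmitate, Elovl6 lengthens it, and the Scd and Fads enzymes place double bonds. The transcription factors encoded by Srebf1 and Srebf2 drive many of these genes when membrane sterol is low. Scap escorts them out of the endoplasmic reticulum, and the Insig proteins hold them there when sterol is plentiful.

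The question was how this program stood in cells grown with an inhibitor of Mek1/2, serum and LIF, and in cells grown without serum and with an inhibitor of Src. The first medium, 2i/L, held DMEM, fetal bovine serum, PD0325901 against Mek1/2, CHIR99021 against Gsk3β, and LIF. The second, SF/a2i/L, held DMEM/F12 with Neurobasal, N2 and B27, CGP77675 against Src, CHIR99021 and LIF, and no serum. Serum, basal medium and inhibitor therefore differed together, and their parts cannot be told apart here. All lines were labelled C57BL/6. The 3 wild-type libraries in 2i/L came from 2i-14 (passages p18, p39 and p50). The wild-type TSa2i/L lines, derived in a2i/L with serum and then kept in SF/a2i/L, gave 5 libraries. TSa2i-14 was read at p22, p47 and p54, whereas TSa2i-C57 was read at p9 and p58. TSa2i-14 has an actin-EGFP background as well. 2i-O48 lacks H19-DMR and IG-DMR, 2 paternally methylated control regions of imprinted genes, and 2i-O48-TKO lacks the gene H19 too. Both gave 1 library in 2i/L. Both of these and 2i-14 each gave 1 further library after 5 passages in SF/a2i/L, called switched. Each library was 1 culture, and libraries of the same line are passages of it, so p-values measure the spread between cultures and passages and not between independent lines. For the switch, with 1 pair per line, they measure how far the change differed between the 3 lines. Of these, 2i-O48 and 2i-O48-TKO share a name and may be related.

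Values are FPKM, fragments scaled to transcript length and to the mapped fragments of the library. The depth implied by the smallest values was 12600000 to 20000000 fragments, at which 3 fragments on a 1 kb transcript are 0.150 to 0.237 FPKM. All 10 pluripotency markers were at 1 FPKM or more in every library. Of 15 fibroblast markers, which feeder cells would bring, 11, 13 and 8 reached 1 FPKM in 2i-14 p39, TSa2i-14 p54 and TSa2i-C57 p58, with mean log2(FPKM + 1) values of 2.44, 2.70 and 1.59. In the other 10 libraries 1 to 4 reached it, with means of 0.146 to 0.641. Of 8 primitive endoderm markers at most 1 reached it in any library, and of 8 trophoblast markers 3 to 5 did in every library. The summed FPKM of the trophoblast markers was highest in 2i-O48 in 2i/L, at 98.4, and lowest in switched 2i-O48, at 9.8. Haploid cells were enriched by FACS on DNA content in these cultures. MicroRNA loci took 67.2% of the summed FPKM in switched 2i-14 and 23.2% in 2i-14 p18, against at most 1.06% in the others. FPKM is scaled to length, so this is not a share of fragments. The median FPKM of the genes at 1 FPKM or more was 9.29 and 9.33 in these 2 libraries, against 8.3 to 10.0 in the others.

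Every one of the 33 genes was expressed. Ebp, an isomerase of the late sterol steps, had the highest median level over the 13 libraries at 166 FPKM, followed by Msmo1, a sterol demethylase, at 159 and Fdft1, squalene synthase, at 95.6. Idi1, Acat2, Pmvk and Fdps followed at 81.1, 78.5, 72.3 and 71.2, and the ranges of these 4 over libraries overlapped. The lowest medians were those of Scap at 2.18, Hsd17b7 at 1.71 and Acaca at 1.10 FPKM. Acaca, which makes the substrate of Fasn, stayed between 0.824 and 1.71 FPKM in all libraries. The regulators were low except Insig1 and Insig2, with medians of 35.5 and 14.3 against 5.14 for Srebf1 and 3.69 for Srebf2. The mean log2(FPKM + 1) of the 33 genes lay between 3.93, in switched 2i-O48, and 4.51, in 2i-O48 in 2i/L. The lowest and the highest library were thus the same line in the 2 media.

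**Figure D1:**
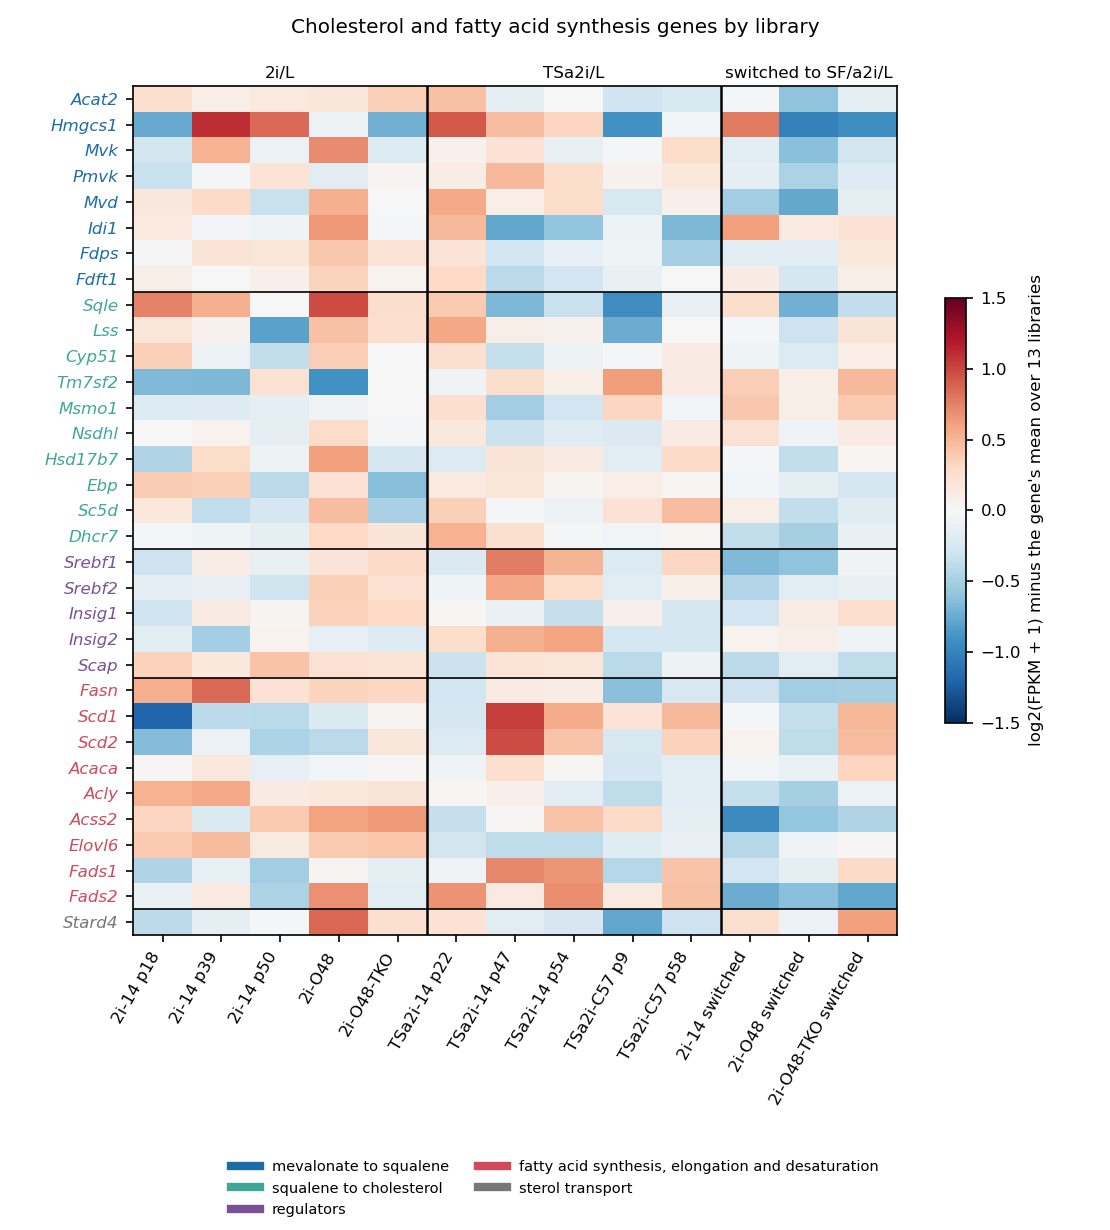
Level of each of the 33 genes (rows, coloured by role) in each of 13 libraries (columns), as log2(FPKM + 1) minus the gene's mean over the libraries. Fasn, Acly and Elovl6 are above their means in all 5 libraries in 2i/L, and Scd1 and Scd2 are highest in TSa2i-14 p47.

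Promoter windows of RefSeq (GRCm38.p6, 250 bases before to 50 after a start site) were found for 26 of the 33 genes. They are described because several of these genes are known targets of the Srebf factors, which bind beside NF-Y and Sp1. The letters TCACNCCAC, a form of the sterol regulatory element, searched on both strands, stood in the windows of 1 of the 26 genes (3.85%), Hmgcs1, and in those of 1.42% of 7906 genes tested. CCAAT, the NF-Y box, stood in 21 of 26 (80.8%) against 44.2%, and GGGCGG, the Sp1 box, in 22 of 26 (84.6%) against 69.6%. Over all 32851 windows the shares were 1.24%, 37.4% and 35.7%. These matches are letters and not measured binding. The 250 bases before the start site are given first for Hmgcs1 (chr13:119690101-119690350, plus strand), the holder of the sterol element, which begins at base -137. Those of Acss2 (chr2:155517793-155518042, plus strand), Elovl6 (chr3:129532136-129532385, plus strand) and Fasn (chr11:120824548-120824797, minus strand) follow, since the results on fatty acid synthesis turn on these genes. Capitals mark the 3 motifs, read on either strand, and the 2 boxes that overlap in Fasn share their middle letters.
Hmgcs1: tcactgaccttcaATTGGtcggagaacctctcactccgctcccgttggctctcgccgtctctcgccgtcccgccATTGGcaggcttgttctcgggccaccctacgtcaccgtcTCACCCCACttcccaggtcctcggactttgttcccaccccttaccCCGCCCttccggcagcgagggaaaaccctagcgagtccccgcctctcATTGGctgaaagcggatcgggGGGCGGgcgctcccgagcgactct
Acss2: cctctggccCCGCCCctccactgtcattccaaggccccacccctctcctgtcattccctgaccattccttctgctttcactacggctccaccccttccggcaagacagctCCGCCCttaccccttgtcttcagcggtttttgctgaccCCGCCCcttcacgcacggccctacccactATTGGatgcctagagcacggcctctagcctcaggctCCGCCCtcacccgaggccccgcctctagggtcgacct
Elovl6: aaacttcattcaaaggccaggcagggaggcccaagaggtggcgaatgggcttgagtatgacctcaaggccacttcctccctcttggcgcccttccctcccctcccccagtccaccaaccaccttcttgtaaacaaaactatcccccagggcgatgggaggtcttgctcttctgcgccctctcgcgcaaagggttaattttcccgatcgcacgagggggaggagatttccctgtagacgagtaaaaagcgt
Fasn: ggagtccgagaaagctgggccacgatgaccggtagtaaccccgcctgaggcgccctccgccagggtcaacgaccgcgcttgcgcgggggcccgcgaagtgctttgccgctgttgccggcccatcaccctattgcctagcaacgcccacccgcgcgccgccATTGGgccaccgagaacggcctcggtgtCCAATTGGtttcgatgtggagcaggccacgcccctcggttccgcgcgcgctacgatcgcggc
Hmgcs1 held 1 sterol element, 3 NF-Y boxes and 2 Sp1 boxes in these 250 bases, Acss2 1 NF-Y and 4 Sp1 boxes, Fasn 3 NF-Y boxes and Elovl6 none of the 3.

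Between the wild-type TSa2i/L lines and wild-type 2i-14 in 2i/L, the members that passed the test were 2 enzymes of the fatty acid branch, in opposite directions. Scd1, the stearoyl-CoA desaturase that makes oleate, was 2.1-fold higher in TSa2i/L, and Elovl6, the elongase ahead of it, was 1.52-fold lower (fold of FPKM + 1). No enzyme of the sterol branch and no regulator passed. Over all 10387 genes tested, 5.72% passed as higher and 1.85% as lower, so that 1 member of 33 in each direction is near the background. Those were 594 and 192 genes, and after median centring 359 and 280. Median centring also changed which members passed, to Elovl6, Fasn and Acly, all lower, with Scd1 lost, and quantile normalization left Elovl6 and Fasn. The median log2 change was 0.01 over the members and 0.07 over all genes. Line and medium go together in this comparison and cannot be told apart. In bulk libraries such as these, fewer cells that express a gene and less RNA of it per cell cannot be told apart either.

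Scd1 (chr19:44468941-44482199, mm9) stood at 8.29 FPKM in 2i-14 at p18, 15.2 at p39 and 15.0 at p50. It stood at 16.8, 42.7 and 30.2 FPKM in TSa2i-14 p22, p47 and p54 and at 23.5 and 28.6 FPKM in TSa2i-C57 p9 and p58. All 5 TSa2i/L libraries lay above all 3 in 2i/L, a pattern that 11.8% of the genes tested showed. The means were 28.4 ± 9.60 (SD, n = 5) and 12.8 ± 3.92 FPKM (SD, n = 3), and the log2 change was 1.07 (SE 0.29, limma adjusted p = 0.0460). The call was lost without any 1 library other than TSa2i-14 p22, with adjusted p from 0.0582 to 0.154, and with median centring (0.95, limma adjusted p = 0.0786). Without the 3 libraries rich in fibroblast markers the change was 1.13 (limma adjusted p = 0.203), and with the mean of those markers as a covariate it was 1.05 (limma adjusted p = 0.0514). Elovl6 (chr3:129235304-129341413, mm9) stood at 18.3 FPKM in 2i-14 at p18, 19.4 at p39 and 15.2 at p50. It stood at 11.2, 10.3, 10.3, 12.0 and 12.5 FPKM in TSa2i-14 p22, p47 and p54 and TSa2i-C57 p9 and p58. All 5 lay below the 3, as 4.72% of genes did, in a narrow range. The log2 change was -0.60 (SE 0.16, limma adjusted p = 0.0478), and it missed the threshold without any 1 of the 8 libraries, where it lay between -0.70 and -0.54 with adjusted p up to 0.175.

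Fasn (chr11:120667254-120685492, mm9) and Acly (chr11:100337667-100389314, mm9), the synthase and the enzyme that cuts citrate to acetyl-CoA, also lay lower in all 5 TSa2i/L libraries without passing. Fasn was at 10.9, 13.7 and 8.51 FPKM in the 3 libraries in 2i/L and at 5.71, 7.88, 7.86, 4.30 and 5.94 FPKM in TSa2i/L, a log2 change of -0.72 (SE 0.23, limma adjusted p = 0.0781). Acly was at 37.9, 39.4 and 28.5 FPKM and at 26.5, 27.6, 23.2, 19.8 and 23.4 FPKM, a log2 change of -0.53 (SE 0.18, limma adjusted p = 0.0954). The highest Acly library in TSa2i/L, at 27.6, lay just under 2i-14 p50 at 28.5. The other desaturases had values on the side of Scd1: 0.67 (SE 0.27) for Scd2, 0.63 (SE 0.27) for Fads1 and 0.56 (SE 0.22) for Fads2, with adjusted p of 0.145 to 0.184. Scd2 ranged from 34.3 to 80.9 FPKM in TSa2i/L and from 25.5 to 38.0 in 2i/L, so its groups overlapped. Acaca and Acss2 had log2 changes of -0.06 (SE 0.17) and -0.12 (SE 0.23). Of the 9 genes of this branch 7 had an unadjusted p under 0.05, as had 2 of the 18 sterol enzymes, 0 of the 5 regulators and 2400 of all 10387 genes, and the difference between these groups was not tested.

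**Figure D2:**
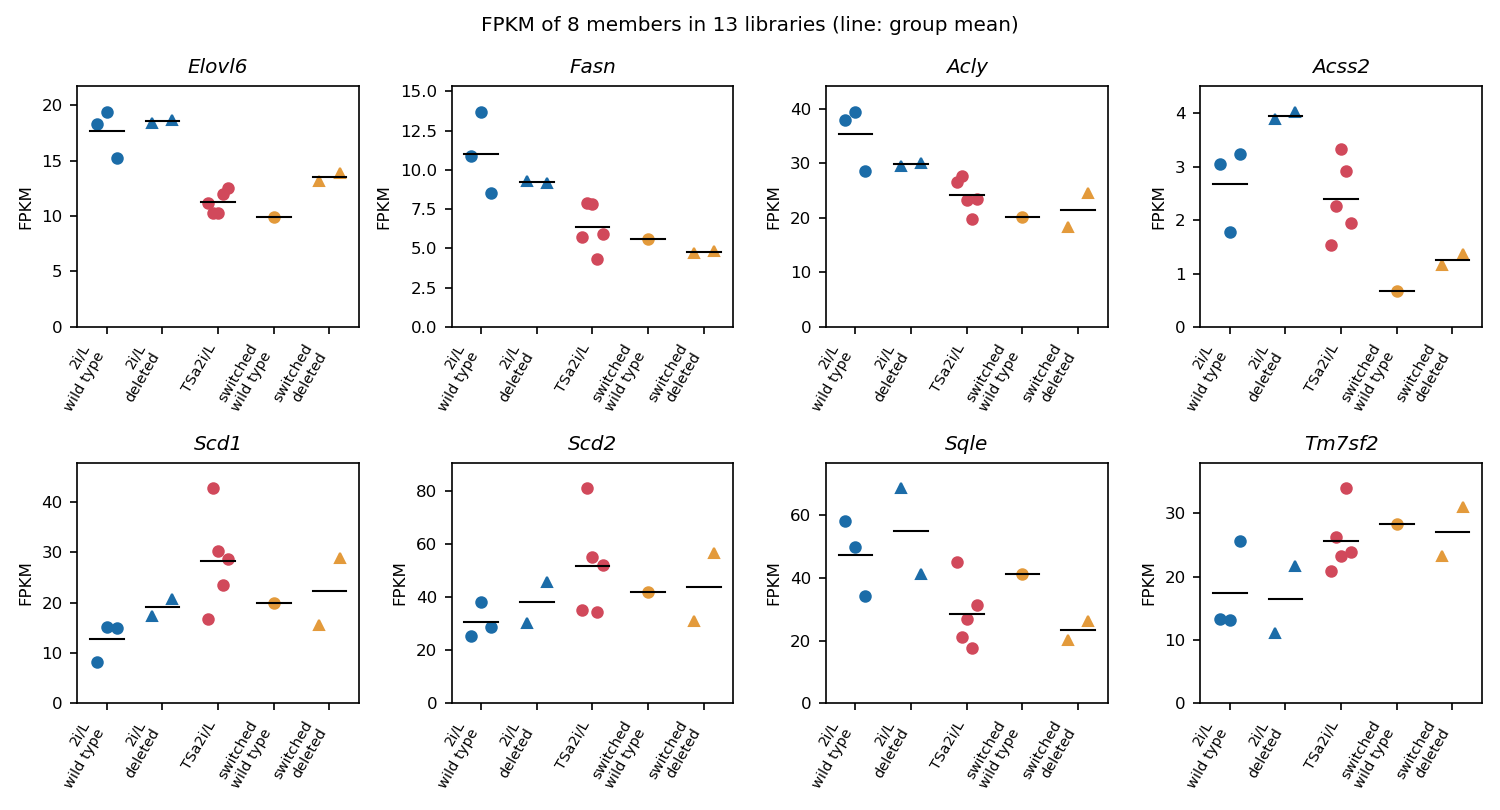
FPKM of 8 of the genes (y axes from 0) in each library, with circles for wild-type and triangles for DMR-deleted lines and a line at the mean of each group. Elovl6, Fasn and Acly are lower in all 8 libraries in SF/a2i/L than in all 5 in 2i/L, Acss2 is lowest in the 3 switched libraries, and Sqle and Tm7sf2 overlap.

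In the sterol branch the 18 enzymes had a median log2 change of 0.02 in TSa2i/L against 2i/L, and they lay between -0.76 and 0.58. Sqle, squalene epoxidase, gave the lowest value. It was at 58.1, 49.7 and 34.1 FPKM in 2i/L and at 45.0, 21.0, 26.8, 17.5 and 31.2 FPKM in TSa2i/L, a log2 change of -0.76 (SE 0.28, limma adjusted p = 0.133). Its groups overlapped through TSa2i-14 p22 and 2i-14 p50. Tm7sf2, a sterol reductase, gave the highest, 0.58 (SE 0.24, limma adjusted p = 0.170). It was at 13.3 and 13.2 FPKM in 2i-14 p18 and p39 but at 25.6 in p50, inside the TSa2i/L range of 20.9 to 33.9 FPKM. Hmgcs1, the synthase at the head of the mevalonate pathway, had the largest standard error of the 33 genes. It ran from 13.4 to 51.7 FPKM in 2i/L and from 12.0 to 45.1 in TSa2i/L, with a log2 change of -0.25 (SE 0.45). Hmgcs1 stands on 2 rows of near-equal values in the tables, which were summed, so its level may count the same fragments under both. The other 15 sterol enzymes lay between -0.34 and 0.34.

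The regulators gave no call between TSa2i/L and 2i/L, with log2 changes of 0.33 (SE 0.25) for Srebf1, 0.33 (SE 0.20) for Srebf2, -0.08 (SE 0.17) for Insig1, 0.38 (SE 0.25) for Insig2 and -0.39 (SE 0.20) for Scap, and a smallest adjusted p of 0.260. Srebf1 was at 4.17, 5.90 and 4.93 FPKM in 2i/L and at 4.48, 9.85, 8.09, 4.56 and 6.92 FPKM in TSa2i/L. Srebf2 was at 3.55, 3.63 and 3.11 FPKM and at 3.81, 6.55, 5.06, 3.54 and 4.32 FPKM. For both, the early passages TSa2i-14 p22 and TSa2i-C57 p9 lay near the 2i/L libraries and the later ones above. Insig1 was at 27.9, 38.2 and 35.5 FPKM in 2i/L and at 35.0, 32.3, 27, 36.7 and 29.0 FPKM in TSa2i/L. Insig2 was at 13.2, 10.2 and 15.5 FPKM and at 18.1, 22, 23.1, 12.3 and 12.3 FPKM, with the 3 TSa2i-14 libraries above and the 2 TSa2i-C57 libraries inside the 2i/L range. Scap was at 2.60, 2.18 and 2.83 FPKM and at 1.28, 2.27, 2.23, 1.15 and 1.7 FPKM. Stard4, a carrier of cholesterol between membranes, had a log2 change of -0.07 (SE 0.22).

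**Figure D3:**
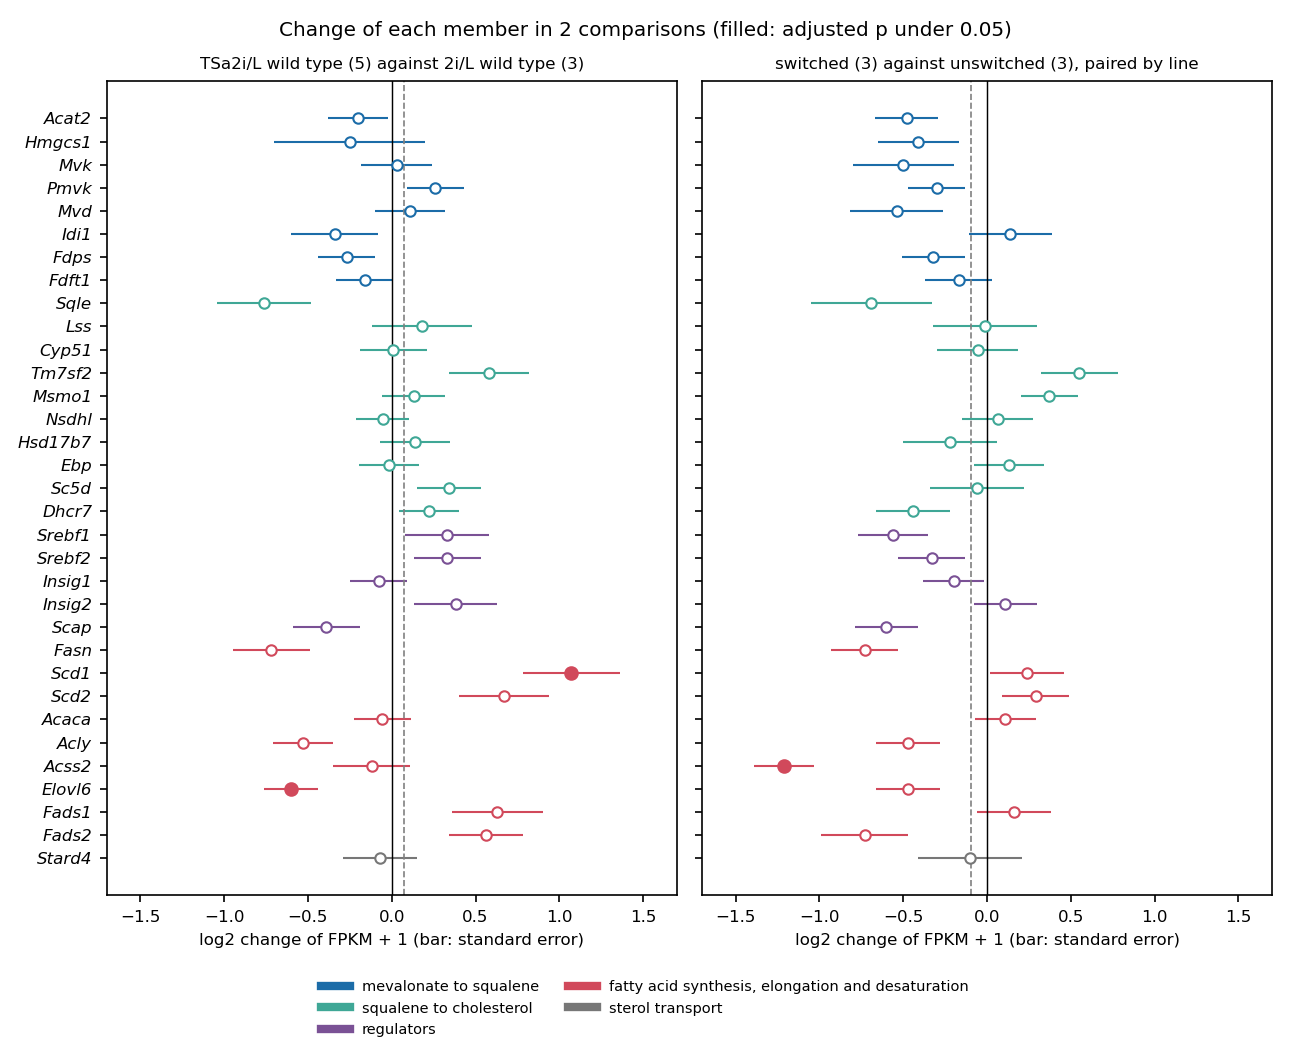
Log2 change of FPKM + 1 with its standard error for each of the 33 genes, in the wild-type TSa2i/L against 2i/L comparison (left) and after the switch (right). Filled points passed at an adjusted p of 0.05, Scd1 and Elovl6 on the left and Acss2 on the right, and dashed lines mark the medians of all genes tested, 0.07 and -0.09.

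When the wild-type 2i-14 and the deleted 2i-O48 and 2i-O48-TKO were moved from 2i/L to SF/a2i/L, 1 member of 33 passed the test. It was Acss2, the synthetase that makes acetyl-CoA from acetate, and it was 2.31-fold lower (fold of FPKM + 1). The sterol enzymes and the regulators gave no call, and neither did Scd1. Of 9759 genes tested, 4.66% passed as lower and 2.22% as higher, 455 and 217 genes, and after median centring 314 and 386. The median log2 change was -0.22 over the members and -0.09 over all genes. Without 2i-O48 the median of the members was -0.08 against -0.05 for all genes, and with median centring it was -0.05 against 0.07 for all genes. In this comparison each switched library was set against the same line in 2i/L, with 2i-14 p50 for 2i-14, and 2i-14 p50 is a control of the comparison above as well. The labels give no passage for the switched cultures, 2i-O48 or 2i-O48-TKO. The 2i/L libraries may therefore not be the cultures from just before the switch.

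Acss2 (chr2:155343684-155411460, mm9), which stood at 3.05 and 1.77 FPKM in 2i-14 at p18 and p39, went from 3.24 to 0.665 FPKM in 2i-14, from 3.89 to 1.16 in 2i-O48 and from 4.03 to 1.36 in the TKO line. The 3 switched libraries lay below the 3 unswitched ones, with log2 changes of -1.35, -1.18 and -1.09, and the mean was -1.21 (SE 0.18, limma adjusted p = 0.0203). At these levels the scale of log2(FPKM + 1) understates the fold. Without 2i-O48-TKO it was -1.26 with an adjusted p of 0.0632. The TSa2i/L lines, which were kept in SF/a2i/L for longer, stood apart from the switched cells in this gene, at 1.54, 2.27, 3.34, 2.93 and 1.94 FPKM, all above the 3 switched libraries and within the range of the 2i/L libraries apart from TSa2i-14 p22.

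Lower values in all 3 pairs were counted, however small the change. They were found for 16 of 33 members, against 29.4% of all genes tested, and higher values in all 3 pairs for 4, against 19.4%. The 16 were 6 of 8 enzymes leading to squalene, 1 of 10 from squalene to cholesterol, 4 of 5 regulators and 5 of 9 genes of fatty acid synthesis. Some of the 16 had a pair near 0: Hmgcs1 and Mvk in 2i-14 (-0.07 and -0.08), Fdps and Insig1 in 2i-O48-TKO (-0.05 and -0.04). So had Insig2 (0.00 in 2i-14) and Scd2 (0.03 in 2i-O48) among the 4. Signs were taken without median centring, which moved the median of all genes after the switch from -0.09 to 0.07. The counts were not repeated with it. The lines differed in extent: 29 members were lower in 2i-O48 after the switch, with a median log2 change of -0.57 against -0.17 for all genes, while 16 were lower in 2i-14 and 18 in 2i-O48-TKO, with medians of 0.00 and -0.05 against 0.01 and -0.10 for all genes. The low values were thus uneven over the lines, and why 2i-O48 stood apart was not tested.

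In the fatty acid branch Fasn had log2 changes of -0.53, -0.85 and -0.81 in 2i-14, 2i-O48 and the TKO line and a mean of -0.73 (SE 0.20, limma adjusted p = 0.0860). It went from 8.51 to 5.59, from 9.28 to 4.71 and from 9.19 to 4.81 FPKM. Elovl6 went from 15.2 to 9.94, from 18.4 to 13.2 and from 18.7 to 13.9 FPKM, a mean of -0.47 (SE 0.19, limma adjusted p = 0.184). The values of Elovl6 lay within -0.57 and -0.40 on the log2 scale in the 3 lines. Acly went from 28.5 to 20.2, from 29.4 to 18.3 and from 30.1 to 24.5 FPKM, a mean of -0.47 (SE 0.19, limma adjusted p = 0.185). Fads2, the delta-6 desaturase, was lower in all 3 pairs, at -0.26, -1.32 and -0.60 (mean -0.73, SE 0.26, limma adjusted p = 0.144), whereas its value in TSa2i/L against 2i/L was 0.56. In the order 2i-14, 2i-O48 and TKO, Scd1 was at 15.0, 17.3 and 20.8 FPKM in 2i/L. It was at 20, 15.6 and 28.9 FPKM after the switch, higher in 2 lines and lower in 1 (0.24, SE 0.22, limma adjusted p = 0.531). Scd2, Fads1 and Acaca had changes of 0.29, 0.16 and 0.11 (SE 0.20, 0.22 and 0.18).

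Among the regulators Scap went from 2.83 to 1.16 FPKM in 2i-14, from 2.33 to 1.52 in 2i-O48 and from 2.28 to 1.18 in the TKO line, a mean of -0.60 (SE 0.19, limma adjusted p = 0.109). Srebf1 went from 4.93 to 3.04, from 6.3 to 3.21 and from 6.77 to 5.14 FPKM, a mean of -0.56 (SE 0.21, limma adjusted p = 0.152). Neither passed, although each was lower in 3 of 3 pairs. Srebf2 went from 3.11 to 2.73, from 5.45 to 3.50 and from 4.89 to 3.69 FPKM (-0.33, SE 0.20). Insig1 went from 35.5 to 28.3, from 44.2 to 37.4 and from 42.8 to 41.5 FPKM (-0.20, SE 0.18). Insig2, the other retention protein, went from 15.5 to 15.5, from 13.6 to 16.0 and from 13 to 14.3 FPKM (0.11, SE 0.19).

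The 8 enzymes leading to squalene had a median log2 change of -0.36 after the switch and the 10 that follow had -0.03, with adjusted p of 0.181 and above. Acat2 went from 86.6 to 77.5, from 87.9 to 51.1 and from 101 to 70.4 FPKM (-0.48, SE 0.19, limma adjusted p = 0.181). Mvk and Mvd, mevalonate kinase and the diphosphomevalonate decarboxylase, were lower by values that came mostly from 2i-O48, at -1.33 and -1.30, against -0.08 and -0.18 in 2i-14 and -0.08 and -0.15 in 2i-O48-TKO. Sqle spread most, at 0.26 in 2i-14, -1.71 in 2i-O48 and -0.62 in the TKO line. Tm7sf2 and Msmo1 were higher in all 3 pairs, with means of 0.55 (SE 0.23, limma adjusted p = 0.200) and 0.37 (SE 0.17, limma adjusted p = 0.227). Stard4 was at 0.27, -0.95 and 0.38.

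**Figure D4:**
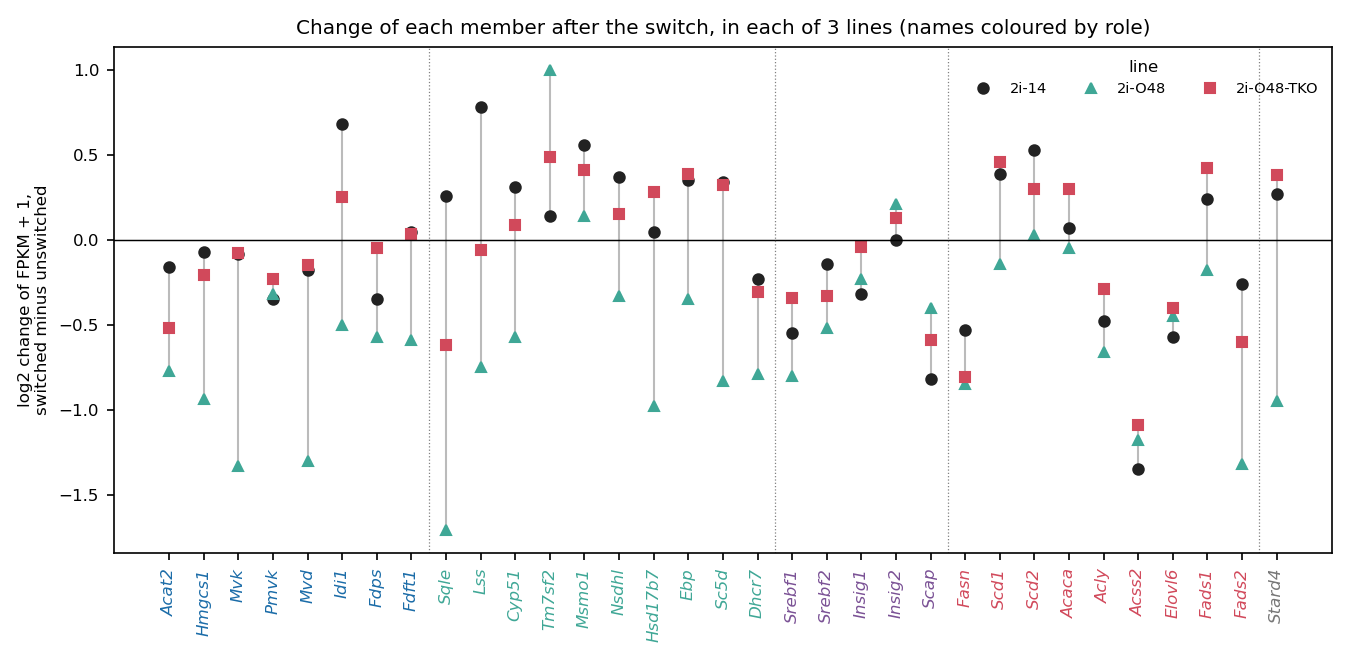
Log2 change of FPKM + 1 after 5 passages in SF/a2i/L for each gene (x axis, names coloured by role) in 2i-14 (circles), 2i-O48 (triangles) and 2i-O48-TKO (squares), joined by a grey line. Acss2 lies between -1.35 and -1.09 in the 3 lines, and Sqle runs from 0.26 to -1.71.

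The 2 comparisons leave out some libraries each, so all 13 were also set against each other, the 8 in SF/a2i/L against the 5 in 2i/L. This comparison was chosen after the values were seen, shares its libraries with those above and takes passages of one line as separate samples, so it is no independent evidence. It gave 5 members, 4 lower and 1 higher in SF/a2i/L, against 4.19% and 6.33% of 10164 genes. The 4 were Elovl6 (-0.59, SE 0.12, limma adjusted p = 0.00667), Fasn (-0.73, SE 0.16, limma adjusted p = 0.0102), Acly (-0.51, SE 0.14, limma adjusted p = 0.0254) and Sqle (-0.82, SE 0.23, limma adjusted p = 0.0336). Tm7sf2 was the 1 that was higher (0.66, SE 0.19, limma adjusted p = 0.0397). Elovl6, Fasn and Acly had every SF/a2i/L library below every 2i/L library, 3 of 33 members against 1.89% of genes, and no member had every one above, against 2.83%. Elovl6 lay at 9.94 to 13.9 FPKM in SF/a2i/L and at 15.2 to 19.4 in 2i/L, Fasn at 4.30 to 7.88 and 8.51 to 13.7, and Acly at 18.3 to 27.6 and 28.5 to 39.4. Elovl6 and Fasn passed in 23 of 23 alternative settings and Acly in 20, whereas Sqle and Tm7sf2 passed in 12 each. Scap (-0.44, limma adjusted p = 0.0544) and Scd1 (0.70, limma adjusted p = 0.0778) did not pass.

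Genes around these pathways were read from 3 further lists, chosen by function with earlier results of these data known. Their counts stand against the shares of all genes given above, 5.72% higher and 1.85% lower in TSa2i/L and 2.22% higher and 4.66% lower after the switch. In TSa2i/L against 2i/L, 3 of 21 tested genes of sterol uptake, efflux, storage and sensing passed, all higher: Apoe, which carries lipids out of cells, by 1.53 (SE 0.19), Scarb1, a lipoprotein receptor, by 1.04 (SE 0.24), and Soat1, which esterifies cholesterol, by 0.91 (SE 0.23). After the switch 1 of 19 passed, Apoe, higher by 1.58 (SE 0.13, limma adjusted p = 0.00456). Apoe was at 534 to 1760 FPKM in the 5 libraries in 2i/L and at 1630 to 5130 FPKM in the 8 in SF/a2i/L. Scarb1 had 7.08 to 9.01 FPKM in the switched libraries against 6.06 to 15.5 in 2i/L, and did not pass there.

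In the list of fatty acid supply, activation and elongation, 2 of 23 genes passed in TSa2i/L and 2 of 21 after the switch, the same 2 and higher in both. Mid1ip1, a partner of acetyl-CoA carboxylase, was at 4.70 to 8.62 FPKM in 2i/L, 13.8 to 25.1 in TSa2i/L and 9.61 to 18.5 in the switched libraries, with log2 changes of 1.60 (SE 0.24) and 1.18 (SE 0.24). Elovl7, an elongase of very long chains, was at 2.25 to 5.18, 10.8 to 16.5 and 9.40 to 10.4 FPKM, with changes of 1.97 (SE 0.19) and 1.15 (SE 0.23). These 2 therefore went against Elovl6 and Fasn. In fatty acid oxidation, 1 of 21 genes passed as higher and 1 as lower in TSa2i/L, and 1 as higher and 3 as lower after the switch, where 1 of 21 is near the share of all genes. Acaa2, the mitochondrial thiolase that ends each round of oxidation, was at 86.5 to 119 FPKM in 2i/L and at 13.3 to 27.5 in SF/a2i/L, with changes of -2.26 (SE 0.18) and -2.44 (SE 0.28). Slc25a20, the carnitine carrier, went from 69.1 to 19.1, from 143 to 34.0 and from 85.2 to 22.5 FPKM after the switch (-1.90, SE 0.18, limma adjusted p = 0.00688). Acadm, a dehydrogenase of medium chains, was lower after the switch (-0.94, SE 0.19, limma adjusted p = 0.0392). Echs1, a hydratase of the same cycle, was higher in TSa2i/L (0.80, SE 0.12, limma adjusted p = 0.00335) and Decr1, a reductase for unsaturated chains, after the switch (1.03, SE 0.22, limma adjusted p = 0.0468).

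Passage, line and deletion gave no call among the members, whose median log2 changes were -0.02, -0.22 and 0.19 against 0.02, -0.02 and 0.03 for all genes. Late passages, p30 and above, against early ones within each wild-type line gave 0 of 33, and 0.0% of 10387 genes, with 6 members and 837 genes at an unadjusted p under 0.05. The largest member value was that of Scd1, 0.75 (SE 0.20, limma adjusted p = 0.509). It was at 8.29 FPKM in 2i-14 p18 and 15.2 and 15.0 in the later passages, at 16.8 in TSa2i-14 p22 against 42.7 and 30.2, and at 23.5 in TSa2i-C57 p9 against 28.6. The later passages were higher in every line, and the 3 libraries rich in fibroblast markers are all late ones. Scd2 and Srebf1 had 0.62 (SE 0.20) and 0.56 (SE 0.19), and Idi1, the isopentenyl diphosphate isomerase, -0.66 (SE 0.20). TSa2i-C57 against TSa2i-14 gave 0 of 33 and 0.0% of 10502 genes, with 2 members and 366 genes at an unadjusted p under 0.05, Hmgcs1 at -1.04 (SE 0.31) and Insig2 at -0.73 (SE 0.24). The lines 2i-O48 and 2i-O48-TKO against 2i-14, all in 2i/L, gave 0 of 33 members and 0.118% of 10164 genes. Stard4 had the lowest p there, at 7.81 and 4.74 FPKM in the deleted lines and at 2.70, 3.37 and 3.74 in 2i-14 (0.74, SE 0.27, limma adjusted p = 0.735).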

How the data were processed

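RNA-seq was analysed for 13 libraries. The authors amplified full-length cDNA from small numbers of haploid cells, mapped the reads to mm9 and deposited an FPKM value for each gene, with no counts. The submitters' processing notes name TopHat2 2.0.11, Bowtie2 2.2.2 and Cufflinks 2.2.1. Any scaling between libraries and the gene annotation are not given in the sources used here. The methylation and chromatin samples were not analysed here. Each table had 24525 rows, and the rows of 268 repeated symbols were summed. Depth was estimated from the FPKM of single fragments on 3737 genes over 1500 bp, and the floor of 3 fragments covers counting error only.

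Changes were tested on log2(FPKM + 1), a scale that understates the change of low genes, over all genes at 1 FPKM or more in at least the number of libraries of the smaller group. The test was limma 3.58.1 (R 4.3.3) with an intensity trend, moderated two-sided p-values and Benjamini-Hochberg adjustment over all genes tested, called under 0.05. The switch was fitted with the line as a block, since pairs are the same cell line, and passage likewise. Deviations of same-line libraries from their group means correlated at 0.172, -0.141 and 0.358 over 9759 genes in 2i-14, 2i-O48 and the TKO line. The members and lists were chosen with earlier results of these data known, as was the naming rule. It gave values in every library for the regulators and for members called in TSa2i/L against 2i/L or after the switch, accounted for every member, and took called genes of the 3 further lists, up to 10 per comparison. The per-library values of Fasn and Acly, and those given for Sqle, Acat2 and other members that were not called, were added after their values were seen. Gene positions are from GENCODE vM1 (mm9), which gave 32 of 33 members, and promoter sequences from RefSeq (GRCm38.p6). The fit was tested on simulated data. Plots used Python 3.11.15, numpy 2.4.6, pandas 2.3.3 and matplotlib 3.10.9.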

Additional observations from a re-analysis of the deposited data

Results flagged for a closer look

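Lss, the cyclase that closes the sterol ring, and Sqle, the enzyme before it, were higher after the switch in wild-type 2i-14 and lower in both lines that lack H19-DMR and IG-DMR. Lss had a log2 change of 0.78 in 2i-14, from 2.41 to 4.85 FPKM, and of -0.75 and -0.06 in 2i-O48 and 2i-O48-TKO. Sqle had 0.26, from 34.1 to 41.1 FPKM, and -1.71 and -0.62. The difference between the wild-type and the deleted lines was not tested, with 1 wild-type pair. Such an opposite direction was found for 2 of 33 members and for 19.8% of 9759 genes. Among the 5 TSa2i/L libraries no member had 1 library far from the other 4 (Dixon's test over 33 genes, where chance gives about 1.65).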

How the results depend on the processing

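The calls in TSa2i/L against 2i/L were close to the threshold. They numbered 2, and 0 with no filter on low FPKM or with the fibroblast marker mean as a covariate. They numbered 0 also with TSa2i-14 alone and without the libraries rich in fibroblast markers. There were 3 with median centring, 4 when the 2 DMR-deleted lines joined 2i/L, and 0 to 2 with 1 library left out. Over all genes 786 of 10387 passed in the main fit, 639 with median centring and 1250 of 9993 with the DMR-deleted lines. With the fibroblast covariate 781 passed, with TSa2i-14 alone 468 of 10038 and without the fibroblast-rich libraries 229 of 10310. The median of the members there was 0.01, and -0.11 with median centring and 0.15 without the fibroblast-rich libraries. Median centring moved the median of all genes from 0.07 to -0.04 in that comparison and from -0.09 to 0.07 after the switch. Insig1 changed sign between TSa2i/L and 2i/L, from -0.08 to 0.13 without the fibroblast-rich libraries and between -0.21 and 0.013 with 1 library left out, above 0 without 2i-14 p39. After the switch the count was 1, and 0 with no filter on low FPKM or with a mean FPKM of at least 5, which removes Acss2. It was 2 with no replicate block and 4 against every passage of 2i-14. With 1 line left out it was 0 to 2 (0 without 2i-O48-TKO, 2 without 2i-14). Over all genes 672 of 9759 passed in the main fit and 778 with no replicate block. Against every passage of 2i-14 it was 1505 of 10106, without 2i-14 1031 of 9959 and without 2i-O48-TKO 311 of 9810. The higher counts of members thus came beside higher counts over all genes. Passage, line and deletion gave 0 members in every alternative, and the median for line lay between -0.28 and -0.096 with 1 library left out. Over all 13 libraries the count was 5, and 3 with no filter on low FPKM or without the fibroblast-rich libraries. It was 7 with a replicate block. With 1 library left out it was 2 to 6 (2 without 2i-14 p18 or p39, 3 without TSa2i-C57 p9, 2i-O48 or switched 2i-O48-TKO). Of all genes 1069 of 10164 passed there in the main fit, 1655 with the replicate block, and 654 of 10056 without the fibroblast-rich libraries. With no filter 955 of 19824 passed. Without 2i-14 p18 or p39 it was 830 and 725 of 10331. The causes were not tested. With no filter more genes enter the adjustment, 18909 against 10387 and 18837 against 9759. The fits over all 13 libraries, and those of passage and deletion without fibroblast-rich libraries, were chosen after the data were seen. With 1 to 5 libraries a group and no counts, changes of the size seen in most members cannot be separated from the spread between cultures.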
